A study of Mus musculus with 12 samples.

Results

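An intron of the mouse gene Clcn5 carries a group of microRNA (miRNA) hairpins, those of miR-532, miR-188, miR-362, miR-501 and miR-500. The mature miRNAs described here were chosen by name, 9 in all, and 8 of them are rows of the deposited table of 1929 mature miRNAs. They are mmu-miR-532-5p, mmu-miR-532-3p, mmu-miR-188-5p, mmu-miR-362-5p, mmu-miR-362-3p, mmu-miR-501-5p, mmu-miR-501-3p and mmu-miR-500-3p, written below without the species prefix mmu. The named mmu-miR-660-5p was not analysed here. Small RNA was sequenced from liver samples of C57BL/6 mice in 12 libraries. All mice received carbon tetrachloride (CCl4), a liver toxin used to produce fibrosis, by intraperitoneal injection. Mice of the PZH group (6 libraries) were also given Pien Tze Huang, a traditional Chinese medicine, through the stomach each day, and those of the water group (6 libraries) were given double distilled water in its place. Age and dose are not stated in the labels, and no mice without CCl4 are among the samples.

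A miRNA gene inside an intron is usually transcribed together with its host. The hairpin is cut from the primary transcript, trimmed to a short duplex, and 1 arm of that duplex, from the 5′ side (5p) or the 3′ side (3p), is mostly kept in Argonaute while the other is mostly lost. Bases 2 to 8 of the kept arm, the seed, pair with target messages. Clcn5 encodes an endosomal chloride and proton exchanger, known above all from the kidney, where its loss causes Dent disease. Members of the cluster are known from work on liver cancer, where miR-362-5p has been linked to repression of the deubiquitinase CYLD and miR-500 has been described as an oncofetal liver miRNA. In bone marrow stromal cells miR-188 is known to steer the choice between bone and fat.

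In the GRCm38 annotation, Clcn5 lies on the minus strand at chrX:7153810-7319358. The 5 hairpins lie on the same strand within a span of 10815 bases, all in intron 3 of the transcript Clcn5-202 and in no exon of any of its 5 transcripts. In the direction of transcription miR-532 comes at chrX:7248402-7248497, followed after 345 bases by miR-188 at chrX:7247989-7248056. After a gap of 5942 bases lie miR-362 at chrX:7241982-7242046 and miR-501 at chrX:7241243-7241351, 630 bases apart. The hairpin of miR-500 is the last, 3468 bases on, at chrX:7237683-7237774.

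The mature sequences show which arms could share targets, and they come from RefSeq (GRCm38.p6), where 7 of the 9 names were matched. They are written 5′ to 3′ with the seed in capitals, and the partner arms miR-188-3p and miR-500-5p, which are in the table but are no members, are included.
mmu-miR-532-3p: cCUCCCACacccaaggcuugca
mmu-miR-188-5p: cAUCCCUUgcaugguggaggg
mmu-miR-188-3p: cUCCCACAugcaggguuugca
mmu-miR-362-5p: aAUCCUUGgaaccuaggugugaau
mmu-miR-362-3p: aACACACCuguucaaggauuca
mmu-miR-501-5p: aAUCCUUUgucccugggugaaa
mmu-miR-501-3p: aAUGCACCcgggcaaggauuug
mmu-miR-500-5p: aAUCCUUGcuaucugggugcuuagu
mmu-miR-500-3p: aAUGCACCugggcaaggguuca

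The pair miR-501-3p and miR-500-3p had the seed AUGCACC in common, and miR-362-5p and miR-500-5p had AUCCUUG. Over their 22 bases miR-501-3p and miR-500-3p differed at 4 positions counted from the 5′ end, C9U, A18G, U21C and G22A, each given as the base of miR-501-3p, the position and the base of miR-500-3p. Outside the cluster, the seed of miR-362-3p was found in miR-329-3p of chromosome 12 and that of miR-188-5p in miR-7061-3p of chromosome 7. No sequence was matched to the name miR-532-5p, so its seed was not compared. The hairpins of miR-362 and miR-501, whose arms carry the results below, are given with the mature arms in capitals.
miR-362 hairpin: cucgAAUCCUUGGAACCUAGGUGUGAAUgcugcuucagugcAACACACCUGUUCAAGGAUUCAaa
miR-501 hairpin: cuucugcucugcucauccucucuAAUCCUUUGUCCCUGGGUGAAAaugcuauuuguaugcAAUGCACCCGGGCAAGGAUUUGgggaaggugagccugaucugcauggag

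Total counts ranged from 4961913 to 20211784 per library in the water group and from 6065480 to 10436478 in the PZH group. The 8 members together held between 11539 and 44140 counts per library with water and between 21004 and 28763 with PZH, which was 0.212% to 0.251% and 0.244% to 0.346% of all counts. Levels below are CPM (counts scaled to a common library size) after TMM scaling, which also corrects for composition. Nothing in the labels says more than that the libraries come from separate samples of a group, so the p-values measure the spread between these samples. The hepatocyte miRNAs miR-122-5p, miR-122-3p, miR-192-5p and miR-194-5p together stood between 175347 and 229443 CPM in the 12 libraries, as a check of the labelled tissue.

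The cluster was carried by miR-362-5p, with a mean of 1465 ± 112 CPM in the water group, followed by miR-501-3p at 424 ± 32.9, miR-362-3p at 207 ± 10.2 and miR-532-5p at 188 ± 12.6 CPM (SD, n = 6). Lower levels were found for miR-500-3p at 39.1 ± 1.98, miR-532-3p at 21.0 ± 2.34, miR-188-5p at 9.10 ± 2.22 and miR-501-5p at 8.40 ± 1.33 CPM (SD, n = 6). The ranges over the water libraries overlapped for the neighbours miR-362-3p and miR-532-5p and for miR-188-5p and miR-501-5p, so their order was not separated by the spread between libraries. In the water group miR-362-5p made up 62.0% ± 0.867 of the members' summed CPM and miR-501-3p 17.96% ± 0.577 (SD, n = 6). Levels in CPM did not follow the order of the hairpins in the intron. The middle pair held the highest levels, and the neighbours miR-532 and miR-188 differed widely. How closely CPM follows the amount of RNA from one miRNA to another was not tested.

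**Figure D1:**
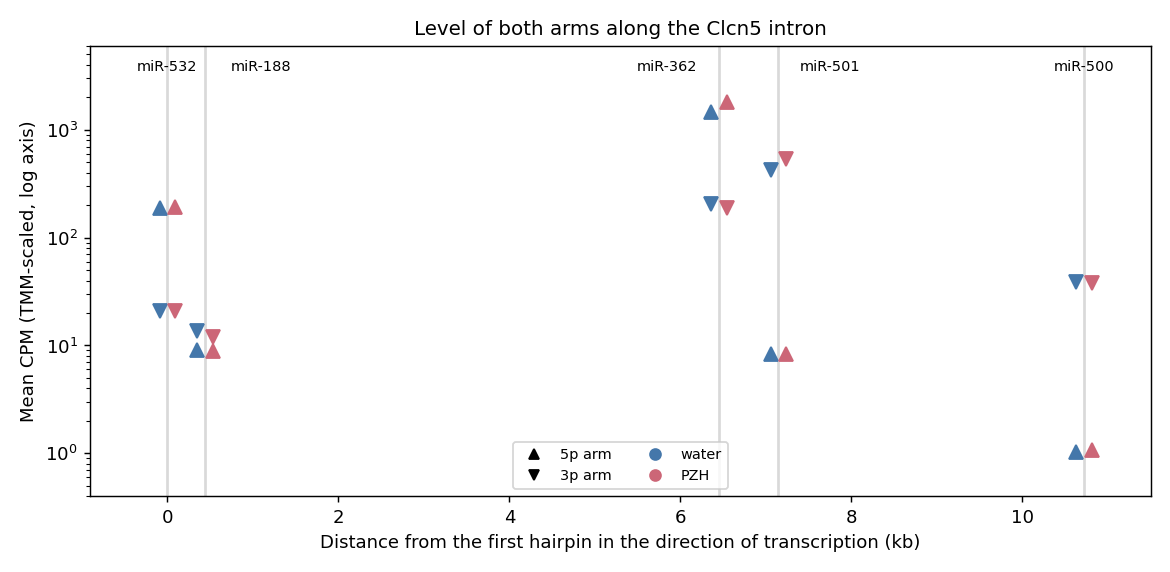
Mean CPM (log axis) of the 5p arm (upward triangles) and 3p arm (downward triangles) of each hairpin in the water (blue) and PZH (red) groups, against distance from the miR-532 hairpin in kilobases; the 2 groups are drawn slightly apart. The 5p arm of miR-362 is highest at 1465 CPM with water, and the 5p arm of miR-500 lowest at 1.03 CPM.

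The question of the comparison was which miRNAs differ between fibrotic livers of mice given PZH and of mice given water. Of the cluster, miR-501-3p and miR-362-5p were higher with PZH, by 1.26-fold and 1.23-fold. The other 6 members, among them the opposite arms of the same hairpins and the seed relative miR-500-3p, were not called in either direction. By edgeR's quasi-likelihood test with Benjamini-Hochberg adjustment over 607 tested miRNAs, 2 of 8 members were called higher, against 9.88% of all tested miRNAs, and none lower, against 11.4%. In either direction 21.3% of all tested miRNAs were called, so the cluster's share of calls is near that of the table as a whole. In whole liver, a change in the number of cells of a type and a change in RNA per cell cannot be told apart. The median log2 fold change was -0.01 over the 8 members and -0.03 over all tested miRNAs. DESeq2 and limma-voom also called 2 members higher and 0 lower. An unadjusted edgeR p under 0.05 was found for 2 of the 8 members, both of them called, and for 32.3% of all tested miRNAs.

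For miR-501-3p, the 3p arm of its hairpin, the lowest, median and highest levels were 382, 428 and 463 CPM in the water group and 484, 517 and 623 CPM in the PZH group. Each of the 6 PZH libraries lay above every water library. Among all tested miRNAs 10% showed no overlap of the groups in either direction, and 5.11% in the upward direction. The log2 fold change of miR-501-3p was 0.33 (SE 0.08, 95% interval 0.16 to 0.51, edgeR adjusted p = 0.00959). The highest level was in PZH replicate 1, and without that library the log2 fold change was 0.29 (edgeR adjusted p = 0.0176).

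For miR-362-5p the lowest, median and highest levels were 1280, 1489 and 1575 CPM with water and 1562, 1725 and 2220 CPM with PZH. The groups overlapped narrowly, with 4 of 6 PZH libraries above every water library. The log2 fold change was 0.30 (SE 0.10, 95% interval 0.10 to 0.50, edgeR adjusted p = 0.0356). PZH replicates 1 and 6 were highest, at 2220 and 2034 CPM. Without PZH replicate 1 the log2 fold change was 0.23 (edgeR adjusted p = 0.0487), and the call ended when water replicate 1, 2, 3 or 6 or PZH replicate 3 or 6 was left out (log2 fold changes 0.26 to 0.32, edgeR adjusted p between 0.0509 and 0.0949).

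Both changes were small beside the called miRNAs of the table, for which the median size of the log2 fold change was 0.90. Of the 129 called miRNAs, 16 had a smaller absolute change than miR-501-3p and 7 a smaller one than miR-362-5p.

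**Figure D2:**
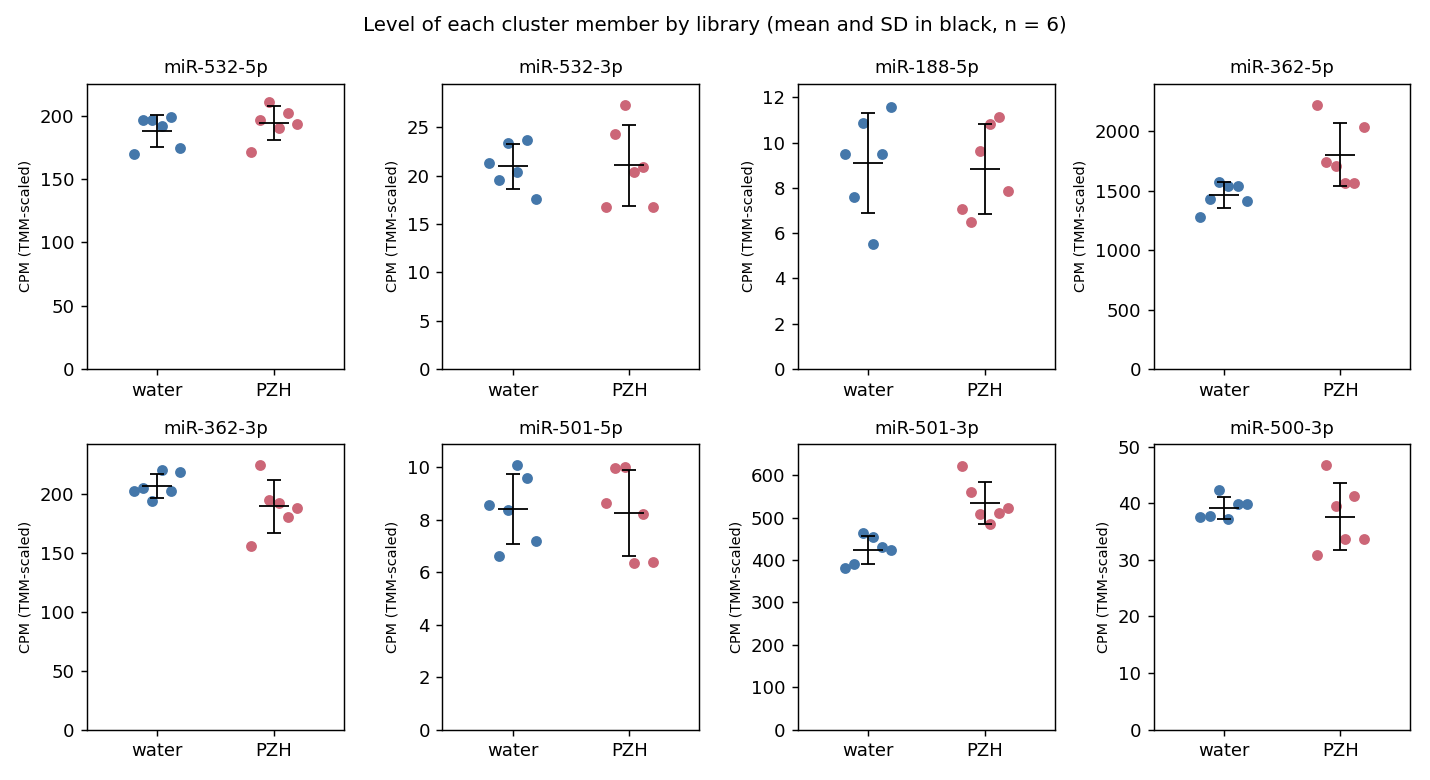
CPM after TMM scaling of each of the 8 members in the 6 water (blue) and 6 PZH (red) libraries, drawn from left to right as replicates 1 to 6, with the mean and SD in black and axes starting at 0. The groups are apart for miR-501-3p, where PZH libraries start at 484 CPM and water libraries end at 463 CPM, and they overlap in the other 7 panels.

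The other arm of the miR-362 hairpin, miR-362-3p, had its lowest, median and highest levels at 194, 204 and 220 CPM with water and at 156, 190 and 225 CPM with PZH. The PZH group held both the lowest library, replicate 1, and the highest, replicate 2. In that group 4 libraries lay below every water library, and 1 lay above every water library. The log2 fold change of miR-362-3p was -0.13 (95% interval -0.32 to 0.06, edgeR adjusted p = 0.385). Of the miR-501 hairpin, the minor arm miR-501-5p ranged from 6.62 to 10.1 CPM with water and from 6.33 to 9.99 CPM with PZH. These ranges lay almost on top of each other, with a log2 fold change of -0.03 (95% interval -0.39 to 0.34, edgeR adjusted p = 0.93).

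The seed relative of miR-501-3p at the end of the cluster, miR-500-3p, had its lowest, median and highest levels at 37.3, 38.8 and 42.4 CPM with water and at 30.9, 36.7 and 46.8 CPM with PZH. The PZH libraries were spread more widely, on both sides of the water group. The log2 fold change was -0.05 (95% interval -0.29 to 0.19, edgeR adjusted p = 0.849), and the interval excludes a rise as large as the 1.26-fold of miR-501-3p. With the counts of both added together as 1 row, the log2 fold change was 0.31 (edgeR adjusted p = 0.0126), which shows how far the more abundant miR-501-3p sets the sum.

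At the start of the cluster, miR-532-5p ranged from 170 to 200 CPM with water and from 172 to 211 CPM with PZH. It had the narrowest interval of the members, with a log2 fold change of 0.05 (95% interval -0.13 to 0.22, edgeR adjusted p = 0.811). Its partner miR-532-3p ranged from 17.6 to 23.7 CPM and from 16.8 to 27.3 CPM, with a log2 fold change of 0.01 (95% interval -0.29 to 0.31, edgeR adjusted p = 0.971). For miR-188-5p the ranges were 5.53 to 11.6 CPM and 6.48 to 11.1 CPM, and the log2 fold change was -0.03 (95% interval -0.46 to 0.40, edgeR adjusted p = 0.93). Its counts were low, between 46 and 146 per library, and a change as large as that of miR-501-3p lies within its interval, so such a change could not be told from none. Its spread between water libraries was 24.4% of the mean. The counting error was 14.7% at the lowest count of all 12 libraries, which was 46 in PZH replicate 1. The interval of miR-501-5p also holds a change of that size, with 36 to 127 counts per library.

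Of the partner arms that are no members, miR-188-3p stood at 13.6 ± 2.84 CPM in the water group and 11.98 ± 1.73 CPM in the PZH group (SD, n = 6), with a log2 fold change of -0.18 (95% interval -0.54 to 0.18, edgeR adjusted p = 0.542). With 3 to 19 counts per library, miR-500-5p did not pass the filter on low counts. The seed relative of miR-362-3p, miR-329-3p, had a log2 fold change of 0.73 (edgeR adjusted p = 0.171) at 1.11 ± 0.492 CPM in the water group and 1.90 ± 0.643 CPM in the PZH group (SD, n = 6). The seed relative of miR-188-5p, miR-7061-3p, had 0 to 20 counts per library and was not tested.

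**Figure D3:**
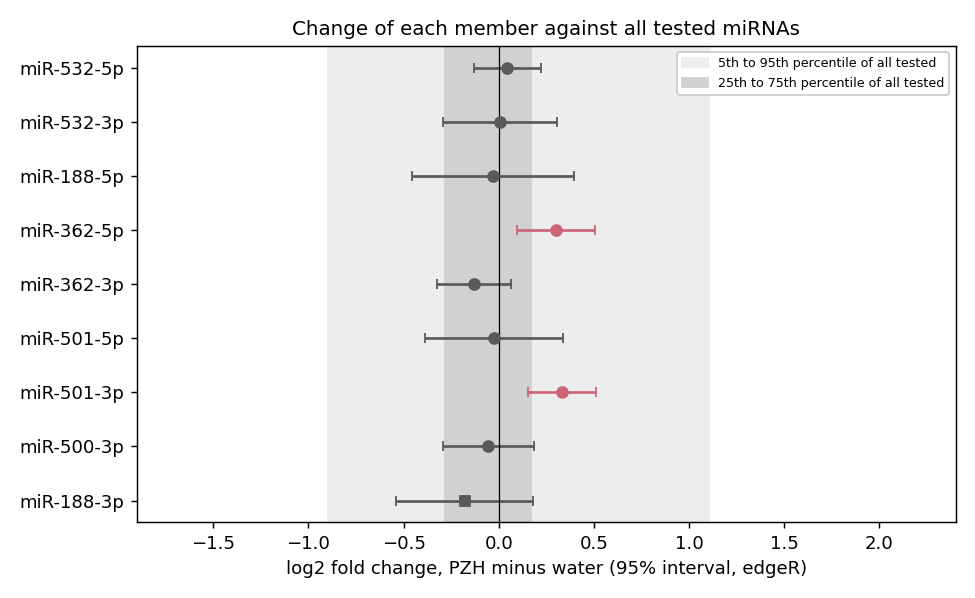
Log2 fold change of PZH against water (x axis) with its 95% interval from edgeR for the 8 members (circles) and the partner arm miR-188-3p (square), with called members in red and the spread of all 607 tested miRNAs as grey bands. The intervals of miR-501-3p and miR-362-5p lie above 0, while the others include 0.

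The summed level of the cluster was 2362 ± 153 CPM in the water group and 2799 ± 281 CPM in the PZH group (SD, n = 6). Without miR-362-5p and miR-501-3p the other 6 members summed to 473 ± 12.9 and 460 ± 41.2 CPM, so the difference in the sum lay in those 2 abundant arms. As shares of the summed level, all 6 had a lower mean with PZH, and the rise of the 2 abundant arms by itself lowers the others' shares. Mean CPM was also lower with PZH for miR-362-3p (189 against 207), miR-500-3p, miR-501-5p and miR-188-5p. It was higher for miR-532-5p and miR-532-3p, and none of these was called. PZH replicate 1 stood at one end for several members, with the highest miR-362-5p and miR-501-3p and the lowest miR-362-3p and miR-500-3p of the 12 libraries. It had the lowest total count of the PZH group, 6065480. Water replicate 6 had fewer counts still, 4961913, with miR-362-5p at 1411, miR-501-3p at 424, miR-362-3p at 219 and miR-500-3p at 39.9 CPM. The part of depth in these values was not tested.

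The arms of a hairpin can be compared within a library, with no scaling. In the water group miR-362 gave a median of 6.99 counts of the 5p arm per count of the 3p arm, and in the PZH group 8.72, with 1 added to each count. The highest ratios were 14.2 in PZH replicate 1 and 10.8 in PZH replicate 6, and 4 of 6 PZH libraries lay above every water library. The difference was 0.43 on the log2 scale (SE 0.15, 95% interval 0.11 to 0.75), with an unadjusted limma p of 0.0117 and an adjusted p of 0.100 over 137 hairpins, so it was not called. For miR-501 the 3p arm gave a median of 49.6 counts per count of the 5p arm with water and 66.2 with PZH. Here the log2 difference of the 5p to 3p ratio was -0.36 (SE 0.14, 95% interval -0.66 to -0.07), with an unadjusted limma p of 0.0193 and an adjusted p of 0.115, so it was not called either. Of the 6 PZH libraries, 4 lay beyond every water library. In this fit 8.03% of hairpins passed the adjusted threshold and 27.7% had an unadjusted p under 0.05.

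The ratios of the hairpins at the start of the cluster were less far apart. The 5p arm of miR-532 gave a median of 8.89 counts per 3p count with water and 9.47 with PZH (log2 difference 0.05, 95% interval -0.20 to 0.31, limma adjusted p = 0.836). The arms of miR-188 were the closest in level, with a median of 1.47 counts of 3p per 5p count with water and 1.39 with PZH (log2 difference of 5p to 3p 0.13, 95% interval -0.23 to 0.50, limma adjusted p = 0.662). With a minimum mean of 100 counts in both arms, the difference of miR-362 passed the threshold (limma adjusted p = 0.0330) and that of miR-532 did not (limma adjusted p = 0.789). The hairpins of miR-501 and miR-188 were not tested with that minimum, since their minor arms fell below it. In that setting 19 of the 80 hairpins tested passed, against 8.03% in the main fit.

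**Figure D4:**
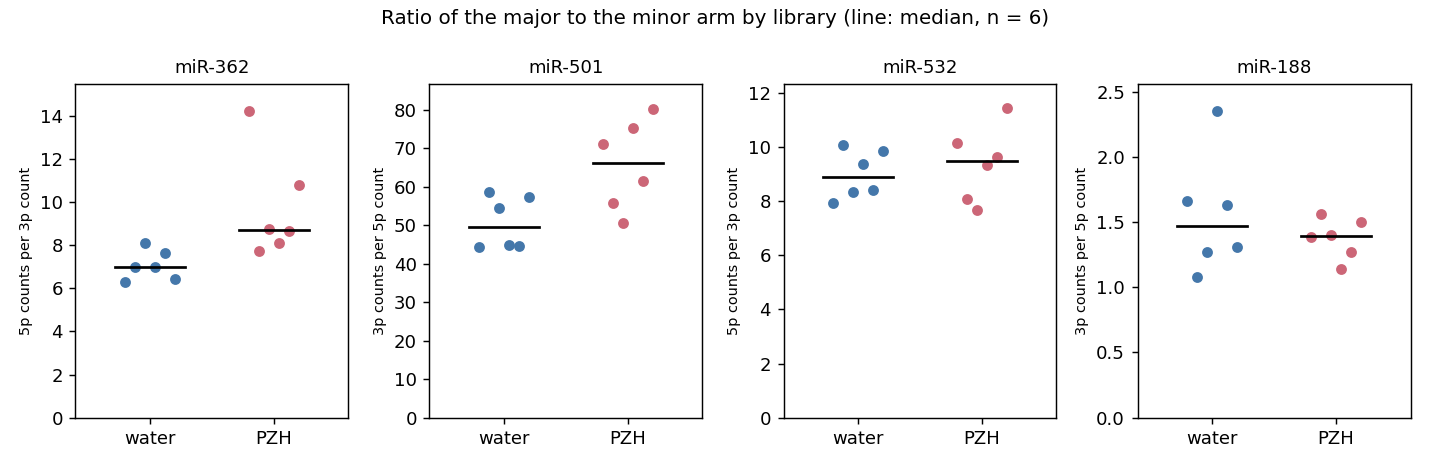
Counts of the major arm per count of the minor arm (1 added to each) for miR-362, miR-501, miR-532 and miR-188 in the 6 water (blue) and 6 PZH (red) libraries, with the median as a line. For miR-362 the median is 6.99 with water and 8.72 with PZH, and PZH replicate 1 stands highest at 14.2.

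The difference between the seed relatives was tested itself, a test chosen after the values were seen. Its p therefore adds no separate support to the call of miR-501-3p. The lowest and highest ratios of miR-501-3p to miR-500-3p counts were 10.2 and 12.2 in the water group and 12 and 20.1 in the PZH group. Of the 6 PZH libraries, 5 lay above every water library, and the mean log2 ratio was 3.44 ± 0.09 in the water group and 3.84 ± 0.28 in the PZH group (SD, n = 6; difference 0.40, two-sided exact permutation p = 0.00433). Leaving out each library in turn gave differences between 0.30 and 0.45.

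Among themselves the members varied in different ways. Over the 12 libraries, with log2 CPM centred on group means, Pearson's r of the 28 pairs of members had a median of 0.12, and 16 pairs were positive. The highest value, 0.79, was that of miR-362-5p and miR-501-3p, the 2 members that rose, and it was 0.81 without the 2 libraries farthest out, PZH replicates 1 and 6. The arms of miR-532 gave 0.65, those of miR-501 gave 0.46 and those of miR-362 gave -0.44. These values are descriptions, since the members share libraries, depth and scaling.

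By the same measure, the 5 miRNAs outside the cluster most like its summed level, among 335 with a mean of at least 10 CPM, were miR-221-3p (0.87), miR-186-5p (0.86), miR-3084-3p (0.80), miR-10a-5p (0.78) and miR-221-5p (0.77). Without the 2 libraries farthest out, PZH replicate 1 and water replicate 1, these values were 0.83, 0.75, 0.59, 0.68 and 0.75 in the same order. The summed level is mostly that of miR-362-5p. Of these, miR-221-3p, encoded elsewhere on the X chromosome, was also higher with PZH (log2 fold change 0.34, edgeR adjusted p = 0.0172), and the other 4 were not called.

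The other X-chromosome miRNAs were taken as a list for comparison. Of 138 such rows, 50 were tested, 1 was higher (miR-221-3p) and 5 were lower with PZH, against 9.88% and 11.4% of all tested miRNAs. The median log2 fold change of the 50 was -0.10. The called members with the smallest p were miR-2137 (-3.05), miR-503-5p (-0.85), the myeloid miR-223-3p (-0.58) and miR-221-3p (0.34). Of 23 markers of hepatocytes, mesenchymal, endothelial, epithelial and erythroid cells and leukocytes, none was called higher with PZH and 5 were lower, namely miR-126a-3p, miR-126a-5p, miR-223-3p, miR-200c-3p and miR-141-3p. That share is near the 21.3% called among all tested miRNAs. The 2 endothelial markers together ranged from 12863 to 17096 CPM with water and from 10272 to 13900 CPM with PZH. The 5 leukocyte markers, of which 1 was called, ranged from 4147 to 5972 and from 3091 to 5513 CPM. For the 4 hepatocyte markers the ranges were 192692 to 222515 and 175347 to 229443 CPM. Those of the 5 mesenchymal markers were 63446 to 92359 and 52788 to 92619 CPM. The 5 epithelial markers gave 931 to 2192 and 864 to 1246 CPM. The 2 erythroid markers gave 2945 to 4743 and 2429 to 4582 CPM. No marker was at 0 in all libraries, and the part of cell composition in the rise of miR-501-3p and miR-362-5p was not tested.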

How the data were processed

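Small RNA was extracted with Trizol and sequenced with the TruSeq Small RNA kit, per the labels' protocols. The deposited table holds raw counts per mature miRNA; cutadapt, FastQC, BWA, DESeq2 and GRCm38 are named in the submitters' processing notes, while the counter and the handling of ambiguous reads are not stated there. The table holds 0 and 2 but never 1 in any cell. Members and lists were chosen with earlier results of these data known. Groups came from the sample titles. Counts were compared with edgeR 4.0.16 in R 4.3.3 (quasi-likelihood, TMM scaling, default low-count filter, Benjamini-Hochberg adjusted p under 0.05, all 12 libraries, no pairing). SEs were derived from the F statistic. Arm ratios were compared with limma 3.58.1 for hairpins with a mean of at least 20 counts in both arms and a pseudocount of 1. The exact test enumerated the 924 assignments of libraries. Alternatives were RLE and total-count scaling, no filter, 10 CPM in 6 libraries, DESeq2 1.42.0, limma-voom, a replicate block, each library left out, and summed counts of miR-500-3p and miR-501-3p. For arm ratios they were other pseudocounts and count minimums. Named miRNAs are the members, partner arms, seed relatives, the 5 miRNAs most like the summed level and up to 4 called X-chromosome miRNAs. Both tests were tested on simulated data. The edgeR test recovered 14.3% of 1.25-fold, 64% of 1.5-fold, 72.3% of 2-fold and 100% of 4-fold changes, with 6.25% of calls false. A change near 1.25-fold was thus mostly missed in this simulation. The changes were placed in miRNAs drawn at random from all 607 tested, so these shares do not describe the abundant miRNAs alone. The limma test of arm ratios recovered 16 of 20 2-fold changes, with 2 false calls. Reads carry no molecular identifiers. Sequences and hairpin positions are from RefSeq GRCm38.p6 and the introns from GENCODE M21; 1647 names matched a mature sequence.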

Additional observations from a re-analysis of the deposited data

Results flagged for a closer look

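In a group of 6 libraries, a highest or lowest value whose gap to its neighbour was, as a share of the group's range, above Dixon's 95% critical value was marked as standing apart, and 2 such values were found among 30 groups checked, where chance marks about 1 in 20. For miR-188-3p, water replicate 2 was lowest at 8.23 CPM, against 13.2 CPM in the next library. For the ratio of miR-501-3p to miR-500-3p counts, water replicate 4 was highest of the water group at 12.2, against 10.9 in the next.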

How the results depend on the processing

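The number of all miRNAs called was 129 and lay between 94 and 144 in the 19 alternatives run. The call of miR-501-3p was kept in the 19 alternatives that gave it a row of its own (log2 fold change 0.29 to 0.42, adjusted p 0.000798 to 0.0430). That of miR-362-5p ended in 7 of 19, which were the replicate block (0.29, adjusted p = 0.102) and 6 omissions of a library, and the number of members called was then 1 (1 to 2 over the omissions, and 1 with the block). The cause was not tested. Replicate numbers are shared by the groups, and the labels do not say whether they mark a pairing. Same-numbered libraries correlated between -0.15 and 0.08 after centring on group means, and 1 of 6 water libraries correlated best with its own number. These correlations cannot decide whether same-numbered libraries were handled together. With the replicate block all calls numbered 114 and called hairpins 6 in place of 11. Called hairpins numbered 19 with a minimum of 100 counts, where the miR-362 ratio passed the threshold (difference 0.43), 4 with a minimum of 5, and 3 to 14 when a library was left out; these minimums change the number of hairpins tested.

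Some members with values near 0 changed sign, with no call except for the summed row of miR-500-3p and miR-501-3p. For miR-501-5p the log2 fold change was 0.0102 with RLE scaling, 0.0246 with total counts, 0.0135 without a filter, 0.0206 with DESeq2 and -0.0954 to 0.0577 when a library was left out. For miR-188-5p it was 0.0094 with RLE scaling, 0.0121 with total counts, 0.0131 without a filter, 0.0254 with DESeq2, 0.0182 with limma-voom and -0.116 to 0.0661 when a library was left out. For miR-532-3p it was -0.0026 with limma-voom, -0.0061 with the replicate block and -0.0761 to 0.0655 when a library was left out. For miR-500-3p it was 0.0356 with a filter of 10 CPM in 6 libraries, and 0.31 for that summed row (adjusted p = 0.0126), most of whose counts are those of miR-501-3p. The miR-532 arm difference lay between -0.0059 and 0.11 when a library was left out. Counting limits the rarest members, where the lowest count of 36 for miR-501-5p gives a Poisson error of 16.7%.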
